A study of Rattus norvegicus with 8 samples.

Results

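The Slc25 genes encode the mitochondrial carriers, and their transcripts were described in the hypothalamus and the hippocampus of rats. Members were all symbols of the form Slc25a followed by a number, whatever their level, which gave 39 genes in both tissue tables among 15892 symbols listed in both (16514 in either). The animals of both groups were male Sprague Dawley rats, an outbred strain, 2 months old at the start of the diet. All of them took 15% fructose in the drinking water and a diet with the omega-3 fatty acid DHA for 6 weeks, so neither nutrient has a comparison here. There were 4 hypothalamus libraries and 4 hippocampus libraries of polyadenylated RNA, and the labels do not say whether libraries of the tissues share animals or whether each library is a separate animal. Levels are FPKM, a count of fragments divided by transcript length and library size, so they can be set against each other between genes; each library was divided by a joint scaling factor, and the number of reads is unknown.

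Mitochondrial carriers sit in the inner membrane and exchange nucleotides, phosphate, organic acids, amino acids and cofactors between the cytosol and the matrix. The adenine nucleotide and phosphate carriers supply ATP synthase and export its product. Other members move reducing equivalents, citrate for lipid synthesis, acylcarnitines for fat oxidation and glutamate, which in the brain is both a fuel and a transmitter. A few members lie elsewhere, in peroxisomes or in the outer mitochondrial membrane.

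Defining genes of each tissue were high in the tissue named by the label. The hypothalamus list (Avp, Oxt, Pmch, Hcrt and Otp) summed to 5455 to 10591 FPKM in hypothalamus libraries and 2.11 to 8.33 in hippocampus libraries, while the hippocampus list (Neurod6, Slc17a7, Prox1 and Wfs1) summed to 18.9 to 23.2 and 864 to 1416. Choroid plexus markers (Ttr, Kl and Kcnj13) stood at 5074 and 6775 FPKM in hippocampus replicates 4 and 3, at 59.3 and 79.1 in the other hippocampus libraries and at 29.8 to 111 in hypothalamus libraries. Of the lists for other cells, neuron markers summed to 834 to 975 FPKM in hypothalamus and 1728 to 2026 in hippocampus, with 1 of 4 called lower by the rule given next. Oligodendrocyte markers summed to 4188 to 6598 and 3089.8 to 4758 (0 of 4 called), microglia markers to 157 to 211 and 102 to 187 (1 of 4 higher) and endothelial markers to 54.6 to 68.0 and 91.9 to 120.5 (2 of 4 lower), and their part in the levels of carriers was not tested. The tissues are in separate tables that were made apart, so levels are set side by side with no test between tissues. A gene was called higher or lower in hypothalamus when the libraries of the tissues did not overlap and the mean difference on the log2(FPKM + 1) scale was at least 1. In whole tissue, fewer cells of a type and less RNA per cell cannot be told apart.

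Carriers of adenine nucleotides and phosphate made up most of the summed FPKM of the Slc25a symbols in both tissues. Family members under other names are outside that sum. They summed to 1022 to 1185 FPKM in hypothalamus and 523 to 855 in hippocampus. Slc25a4, the ADP/ATP exchanger of heart, muscle and brain, stood at 627, 423, 446 and 487 FPKM in hypothalamus libraries, against 545, 263, 415 and 572 in hippocampus libraries. Its groups overlapped, hippocampus replicate 2 was the lowest of all, and the log2 difference was 0.19 ± 0.29 (SE, n = 4 each). Slc25a3, the phosphate carrier, stood at 408, 313, 299 and 310.4 FPKM in hypothalamus, against 549.8, 364, 476 and 546 in hippocampus. These groups also overlapped, at hypothalamus replicate 1 and hippocampus replicate 2, with a difference of -0.53 ± 0.17. For Slc25a4 the difference ranged from -0.05 to 0.32 when each library was left out in turn. Together both genes held 43.2 to 53.3% of the summed FPKM of the Slc25a symbols in hypothalamus and 45.8 to 57.9% in hippocampus.

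Slc25a23, an ATP-Mg/phosphate carrier regulated by calcium that adjusts the matrix pool of adenine nucleotides, ranked 3 among the Slc25a symbols in each tissue. It stood at 103, 191, 177 and 197 FPKM in hypothalamus, against 233, 188, 168 and 163 in hippocampus. Replicate 1 was the lowest library in hypothalamus and the highest in hippocampus, and the log2 SD of 0.44 in hypothalamus was the widest of any member there. The difference of -0.20 ± 0.25 was 0.02 without hypothalamus replicate 1. Its relative Slc25a25 stood at 20.3, 23.2, 22.7 and 19.8 FPKM against 32.1, 24.9, 28.4 and 28.1, with no overlap and a difference of -0.38 ± 0.09, under the limit for a call. Slc25a24, the third calcium-regulated form, stood at 5.12, 3.18, 2.52 and 2.49 FPKM in hypothalamus and 1.39, 2.00, 1.76 and 1.28 in hippocampus. Its groups did not overlap either (0.70 ± 0.21), and hypothalamus replicate 1 lay above its group.

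Slc25a5, the ADP/ATP exchanger that most cell types use, was much lower than Slc25a4 and its libraries did not overlap between the tissues. It stood at 30.8, 28.3, 28.5 and 23.3 FPKM in hypothalamus, against 47.5, 44.1, 44.7 and 48.1 in hippocampus (-0.72 ± 0.09). The level is uncertain, because RefSeq names 9 pseudogenes of Slc25a5 with which reads could be shared. Slc25a41, a short relative of Slc25a23, was listed at 0 in every hypothalamus library and at 0.0640 FPKM or less in hippocampus. None of the 6 members of this class at a mean of at least 1 FPKM was called.

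**Figure D1:**
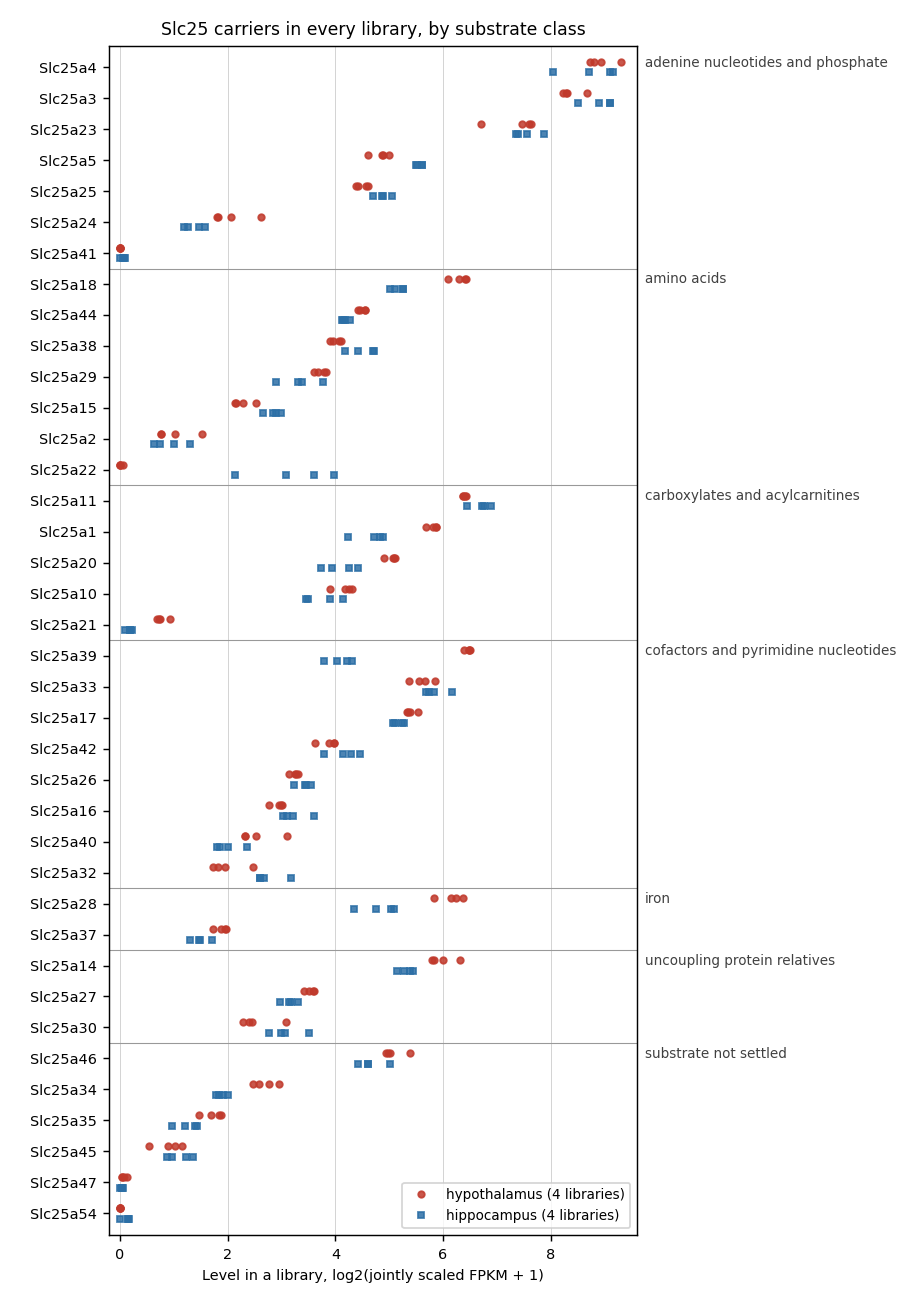
Level of 38 of the 39 carriers in every library, grouped by substrate class; the horizontal axis is log2(jointly scaled FPKM + 1), circles are the 4 hypothalamus libraries (upper of each row) and squares the 4 hippocampus libraries. Slc25a4, Slc25a3 and Slc25a23 lie at the right in both tissues, and Slc25a39, Slc25a28, Slc25a18 and Slc25a1 have hypothalamus circles well to the right of the hippocampus squares.

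Of the 39 members, 34 averaged 1 FPKM or more across all 8 libraries, and 4 of these were called higher in hypothalamus and 2 lower, with 28 neither. Over all 10554 genes at that level 13.3% were called higher and 13.4% lower (26.7% either way), so the 4 members (11.8%) lay near the background and the 2 (5.88%) below it. Of these 2, Slc25a22 reached the level only through its hippocampus libraries, so lower was its only possible call. Its hypothalamus values may be failed estimates, and its hippocampus values are uncertain too. Libraries did not overlap for 13 members that were higher in hypothalamus and 9 that were lower, 64.7% of the 34, where 53.4% of all genes did not overlap (25.7% higher and 27.7% lower). The median difference of the members was 0.21, beside -0.04 over all genes. With values as deposited these medians were 0.42 and 0.18, so an offset of the whole table is part of any direction given here. With that scaling 16 members were higher without overlap and 3 lower, of 35 that reached the level. Slc25a11, Slc25a15, Slc25a16, Slc25a25, Slc25a32 and Slc25a38, lower without overlap after joint scaling, overlapped on the deposited scale.

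Slc25a39, a carrier that human and mouse cells need for glutathione import into mitochondria, had the largest of the 4 higher values. It stood at 88.1, 89.1, 82.8 and 88.0 FPKM in hypothalamus libraries, against 18.8, 12.8, 15.3 and 17.6 in hippocampus libraries. The hypothalamus libraries were close together and far above those of the hippocampus, and the difference was 2.38 ± 0.12. RefSeq names 8 pseudogenes of Slc25a39, so its reads too could be shared with near copies, and whether the tables treated them alike was not tested.

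Slc25a28, mitoferrin 2, which brings iron into mitochondria of most cells, stood at 56.1, 69.7, 74.4 and 81.6 FPKM in hypothalamus, against 31.5, 19.3, 26.0 and 32.8 in hippocampus. The groups were apart by 1.34 ± 0.20 on the log2 scale, and hypothalamus replicate 1 was the nearest to the hippocampus. Slc25a1, the citrate carrier that exports the carbon used for fatty acid and cholesterol synthesis, stood at 55.3, 57.7, 57.2 and 50.2 FPKM in hypothalamus, against 28.7, 17.8, 25.4 and 27.2 in hippocampus. Its difference of 1.14 ± 0.15 was 0.99, just under the limit, without hippocampus replicate 2.

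Slc25a18, a glutamate carrier known in rodent brain mainly from astrocytes, was the fourth. It stood at 67.5, 84.9, 84.3 and 77.8 FPKM in hypothalamus, against 37.2, 37.3, 33.7 and 31.3 in hippocampus (1.15 ± 0.10). The groups were well apart and each was narrow. Of 5 astrocyte markers, Aqp4 and Aldh1l1 were called higher and Gja1, Slc1a3 and Gfap neither, and the 5 summed to 1031 to 1286 FPKM in hypothalamus and 737 to 975 in hippocampus. Their part in the level of Slc25a18 was not tested.

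The start regions of these genes are given for the member with the largest difference and for the called member that lacks the GC box, the hexamer GGGCGG bound by Sp-family factors. Each run holds 300 bases, 250 before and 50 after the RefSeq start of transcription in build GRCr8, read 5′ to 3′ on the gene's strand, with every GC box on either strand in capitals. Slc25a39 lies on the minus strand at chr10:87866924-87867223 and Slc25a18 on the plus strand at chr4:155672919-155673218.
Slc25a39: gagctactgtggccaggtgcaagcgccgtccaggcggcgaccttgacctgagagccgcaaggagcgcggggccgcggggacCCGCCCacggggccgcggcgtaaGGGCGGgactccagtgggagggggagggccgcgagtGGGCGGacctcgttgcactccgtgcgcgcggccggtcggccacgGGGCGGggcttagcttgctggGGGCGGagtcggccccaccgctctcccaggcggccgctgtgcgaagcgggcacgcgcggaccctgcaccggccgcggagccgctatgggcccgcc
Slc25a18: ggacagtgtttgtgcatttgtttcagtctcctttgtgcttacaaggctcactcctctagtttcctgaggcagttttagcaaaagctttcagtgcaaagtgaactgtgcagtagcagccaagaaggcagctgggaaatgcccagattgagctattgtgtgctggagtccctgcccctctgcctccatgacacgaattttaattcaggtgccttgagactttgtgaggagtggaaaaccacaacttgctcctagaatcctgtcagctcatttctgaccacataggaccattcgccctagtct
The Slc25a39 region held 5 GC boxes and had 77.7% G and C, and the Slc25a18 region held none and had 48.0%. Slc25a1 and Slc25a28 held 4 and 3. Among the 33 members with a start region in the RefSeq table, 23 (69.7%) held a GC box, against 33.1% of all 33469 regions of that length. The CCAAT box (CCAAT, either strand) was in 19 members (57.6%) and 37.5% of all regions. The consensus of nuclear respiratory factor 1, NRF1, was found in none of the 33 and in 4.25% of all regions; this concerns these letters in this window only. The table also holds genes of other kinds, and a match is a run of letters, not a bound site.

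**Figure D2:**
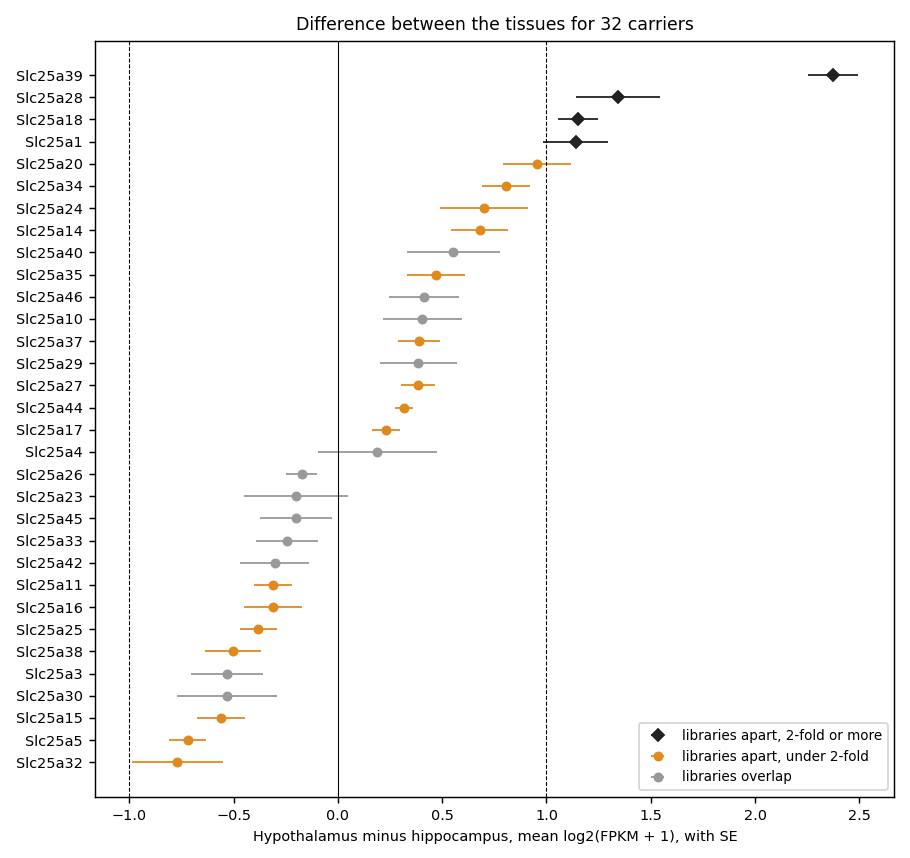
Difference between the tissues (hypothalamus minus hippocampus, mean log2(FPKM + 1), bars are SE, 4 libraries each) for 32 of the 34 carriers at a mean of at least 1 FPKM. Slc25a22, which was listed at 0 in 3 hypothalamus libraries, is among those not drawn. Dashed lines mark a difference of 1 either way, black diamonds are the called members, and orange and grey points are uncalled members whose libraries were apart or overlapped; of those drawn, Slc25a39 stands highest at 2.38 and Slc25a32 lowest at -0.77.

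Slc25a22, called lower in hypothalamus, is a glutamate carrier known for its role in neurons and astrocytes and for epilepsy when lost in humans. It was listed at 0, 0.0387, 0 and 0 FPKM in hypothalamus, against 14.7, 7.45, 3.39 and 11.1 in hippocampus. No fold is given for it, since a listed 0 may be a failed estimate. It is 1 of 6 symbols (with Cend1, Chid1, Pddc1, Pidd and Polr2l) that both tables list at 2 loci each, 14 locus numbers apart. Of the 48 values of these loci, 37 were 0 in the hypothalamus table and 20 in the hippocampus table, and Polr2l, a subunit of RNA polymerases that every cell uses, was listed at 0, 1.57, 28.1 and 3.26 FPKM in hypothalamus and 1.62, 0.654, 91.9 and 0.774 in hippocampus. The hippocampus values of Slc25a22 are therefore uncertain as well. Slc25a22 also had the widest spread of any member in hippocampus, a log2 SD of 0.80, and without it 1 member was called lower.

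Among the remaining amino acid carriers no member was called. Slc25a44, which carries branched-chain amino acids, stood at 20.5 to 22.4 FPKM in hypothalamus and 16.5 to 18.2 in hippocampus, apart by 0.32 ± 0.04. Slc25a38, a glycine carrier that serves haem synthesis, stood at 14.0 to 16.2 against 17.2 to 25.3 FPKM (-0.50 ± 0.14), also without overlap. Slc25a29, a carrier of basic amino acids, stood at 11.2, 13.2, 11.7 and 12.8 FPKM against 12.6, 6.46, 8.92 and 9.34. There the groups overlapped, and the hippocampus libraries had a log2 SD of 0.36, after Slc25a22 and Slc25a4 the third widest in that tissue. Slc25a15, the ornithine carrier of the urea cycle, stood at 4.78, 3.39, 3.84 and 3.46 FPKM against 5.26, 6.90, 6.41 and 6.12 (-0.56 ± 0.11). Its relative Slc25a2 was at 1.86, 1.03, 0.697 and 0.697 FPKM against 0.671, 1.45, 0.999 and 0.553 and fell below the level for comparison. Slc25a12 and Slc25a13, the aspartate/glutamate carriers of the malate-aspartate shuttle, were not among the listed symbols. Slc25a31, Slc25a36, Slc25a43, Slc25a48, Slc25a51, Slc25a52 and Slc25a53 were not listed under these symbols either, so the class totals given below lack all of them.

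Of the carboxylate and acylcarnitine carriers, Slc25a11 was the most abundant. This oxoglutarate/malate exchanger of the malate-aspartate shuttle stood at 84.9, 82.2, 81.2 and 84.2 FPKM in hypothalamus, against 117, 86.5, 104 and 108 in hippocampus. Hypothalamus libraries were close together (log2 SD 0.03) and lay below all hippocampus libraries, by -0.31 ± 0.09. On the deposited scale the groups overlapped, with a difference of -0.08. Slc25a20, the carnitine/acylcarnitine carrier required for mitochondrial oxidation of long-chain fatty acids, averaged 31.9 ± 2.05 FPKM in hypothalamus and 16.3 ± 3.68 in hippocampus (SD, n = 4 each). The groups did not overlap, and the difference of 0.95 ± 0.16 lay just under the limit. It was above it at 1.18 on the deposited scale, 1.06 under upper-quartile scaling, 1.06 without hippocampus replicate 4 and 1.19 without the hippocampus libraries with choroid plexus transcripts. Slc25a10, the dicarboxylate carrier, overlapped at 13.9, 18.7, 17.1 and 18.1 FPKM against 14.0, 10.3, 9.99 and 16.7. Slc25a21, a carrier of oxodicarboxylates from lysine breakdown, stayed under 1 FPKM at 0.606 to 0.892 against 0.0673 to 0.168, without overlap.

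The cofactor and pyrimidine nucleotide carriers described next were all below the limit for a call. Slc25a33, a pyrimidine nucleotide carrier, stood at 40.3 to 56.9 FPKM in hypothalamus and 50.4 to 71.2 in hippocampus, with overlap. Slc25a17, a carrier of coenzyme A and related cofactors in peroxisomes, stood at 39.2 to 45.4 against 32.6 to 37.5 FPKM (0.23 ± 0.07), and its groups were apart. Slc25a32, of folate or FAD, was at 2.30 to 4.57 against 5.05 to 8.05 FPKM, a difference of -0.77 ± 0.22 without overlap. Slc25a16 was also apart, at 5.82 to 7.02 against 7.20 to 11.2 FPKM, and Slc25a42, a coenzyme A carrier, overlapped at 11.3 to 14.7 against 12.8 to 20.9. Slc25a26, the S-adenosylmethionine carrier, overlapped at 7.83 to 8.83 against 8.38 to 10.7 FPKM, summed over 2 loci in each table. Slc25a40, the relative of Slc25a39, overlapped as well, at 7.61, 3.97, 4.01 and 4.72 FPKM against 2.51, 4.14, 3.02 and 2.64. Its log2 SD in hypothalamus of 0.37 came after those of Slc25a23 and Slc25a24, with replicate 1 on top.

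The brain relatives of the uncoupling proteins included Slc25a14, at 78.9, 56.0, 54.5 and 63.1 FPKM in hypothalamus, against 37.5, 34.3, 42.4 and 40.8 in hippocampus. The libraries were apart by 0.68 ± 0.14, again with hypothalamus replicate 1 highest. Slc25a27, known as UCP4 and found mainly in neurons, stood at 10.4, 9.69, 11.1 and 11.0 FPKM against 8.87, 8.04, 6.79 and 7.85 (0.38 ± 0.08). Slc25a30 overlapped, at 3.87 to 7.46 against 5.77 to 10.4 FPKM. The second mitoferrin, Slc25a37, best known from developing red cells, was low at 2.89, 2.89, 2.31 and 2.67 FPKM against 1.80, 2.26, 1.76 and 1.47, apart by 0.39 ± 0.10.

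Among the listed Slc25a symbols whose substrate is not settled, Slc25a46 was far above the rest. This protein of the outer membrane affects mitochondrial shape. It stood at 29.5 to 41.0 FPKM in hypothalamus, summed over 2 loci, and 20.3 to 31.5 in hippocampus, where it had 1 locus, with overlap. Its difference was 0.41 with the sum and -0.15 with the highest locus in place of the sum, so no direction is given for it. Slc25a34 (5.52 ± 0.961 against 2.70 ± 0.240 FPKM, a difference of 0.81 ± 0.12) and Slc25a35 (1.77 to 2.67 against 0.953 to 1.69 FPKM, 0.47 ± 0.14) were apart. Slc25a34 had 2 loci in the hippocampus table and 1 in that of hypothalamus, and with the highest locus in place of the sum its difference passed the limit at 1.02. Slc25a45 was at 0.451 to 1.22 against 0.839 to 1.55 FPKM with overlap, and Slc25a47 and Slc25a54 stayed at 0.0940 FPKM or less in hypothalamus and 0.128 or less in hippocampus.

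Some members near 0 FPKM lie next to members with a higher level. In the RefSeq gene order Slc25a41 neighbours Slc25a23, Slc25a54 neighbours Slc25a24 and Slc25a47 neighbours Slc25a29. The first of each pair stayed at 0.128 FPKM or less in all 8 libraries. Their neighbours averaged 167 ± 43.6 FPKM in hypothalamus and 188 ± 32.3 in hippocampus for Slc25a23, 12.2 ± 0.927 and 9.34 ± 2.53 for Slc25a29, and 3.33 ± 1.24 and 1.61 ± 0.334 for Slc25a24 (SD, n = 4 each). The order of levels has 38 steps between neighbouring members. The library range of the lower member lay wholly under that of the upper one at 9 steps in hypothalamus and 8 in hippocampus, among them the steps below Slc25a4, below Slc25a23 and, in hypothalamus, below Slc25a3. Within libraries the upper member was higher in 4 of 4 at 15 steps in each tissue, Slc25a39 over Slc25a11 in hypothalamus among them.

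Summed by class, adenine nucleotide and phosphate carriers held a smaller share of the FPKM of the Slc25a symbols in hypothalamus. It was 57.5 to 61.5%, against 64.7 to 71.3% in hippocampus. The iron carriers took 3.04 to 4.73% in hypothalamus and 1.58 to 1.77% in hippocampus, nearly all of it Slc25a28. In FPKM, totals of adenine nucleotide and phosphate carriers overlapped at 1195, 982, 975 and 1040.1 in hypothalamus, against 1409, 886, 1134 and 1359 in hippocampus. The log2 difference of that total was -0.17 and turned to 0.06 with values as deposited. The totals of the other 6 classes were higher in hypothalamus without overlap, by 0.26 for carboxylates and acylcarnitines, 0.36 for cofactors and pyrimidine nucleotides, 0.41 for amino acids, 0.47 for unsettled substrates, 0.52 for uncoupling protein relatives and 1.30 for iron. The totals of amino acids and of cofactors and pyrimidine nucleotides follow Slc25a18 and Slc25a39: the median difference of single members was -0.09 and -0.24, and in each class 3 members were lower without overlap and 2 higher. Without the members called higher, an alternative chosen after seeing the data, the total of amino acids differed by -0.25, the total of cofactors and pyrimidine nucleotides by -0.22 and the total of carboxylates and acylcarnitines by 0.0046, and only the first of these did not overlap. On the deposited scale these were -0.020, 0.0092 and 0.24, so no direction is given for them. The totals, median and counts of the amino acid class include Slc25a22, whose hypothalamus values may be failed estimates and whose hippocampus values are uncertain too. A total without both Slc25a18 and Slc25a22 was not formed. The total for unsettled substrates overlapped, at 0.07, with the highest locus in place of the sum, since most of it is Slc25a46. That total leaves out Mcart1l, a synonym of Slc25a53 in RefSeq, which averaged 219 FPKM in hypothalamus and 389 in hippocampus. The total itself averaged 41.9 and 30.1, so its direction holds only for the symbols counted.

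**Figure D3:**
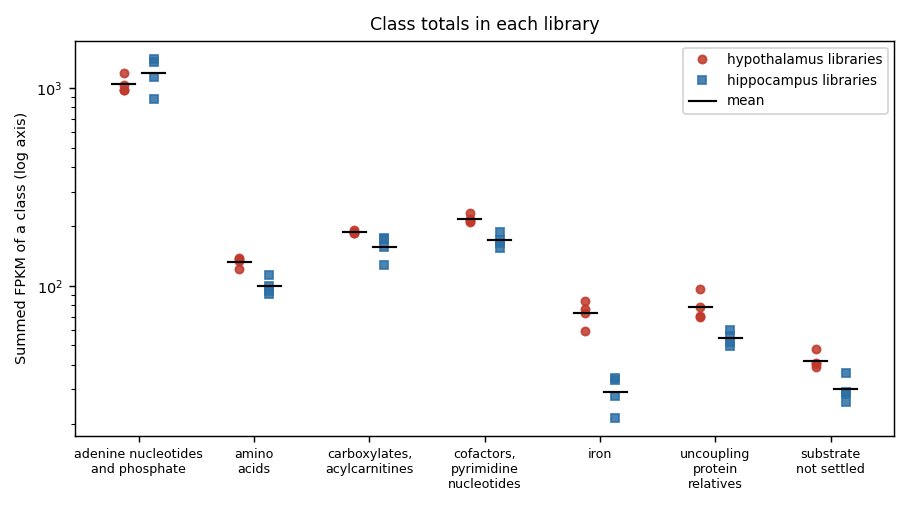
Summed FPKM of the members of each substrate class in every library (vertical log axis), with circles for the 4 hypothalamus libraries, squares for the 4 hippocampus libraries and a line at the mean of each. The iron carriers are the furthest apart, at a log2 difference of 1.30, and adenine nucleotide and phosphate carriers overlap.

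Ratios of related carriers within a library do not depend on a library's scaling, apart from the pseudocount of 1. Of 10 planned pairs 8 could be formed, since Slc25a12, Slc25a13 and Slc25a36 were not listed. In each of the 7 that do not include Slc25a22 the same member was higher in 4 of 4 libraries of both tissues; an exact sign-flip test over 4 libraries cannot go below a two-sided p of 0.125. The ratio of Slc25a4 to Slc25a5 was 3.85 to 4.33 on the log2 scale in hypothalamus and 2.55 to 3.55 in hippocampus, so the ranges were apart. For the glutathione pair the ratio of Slc25a39 to Slc25a40 was 3.37 to 4.18 in hypothalamus and 1.42 to 2.50 in hippocampus. The mitoferrin ratio, Slc25a28 to Slc25a37, was 3.87 to 4.51 in hypothalamus and 2.64 to 3.77 in hippocampus. That separation depends on the pseudocount, since Slc25a37 is low. At a pseudocount of 0.1 the mitoferrin ranges overlapped, with hippocampus replicate 4 (32.8 over 1.47 FPKM) above hypothalamus replicate 1 (56.1 over 2.89).

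The other direction held for the ratio of Slc25a11 to Slc25a10, at 2.08 to 2.53 in hypothalamus and 2.62 to 3.26 in hippocampus, and for the ornithine carriers Slc25a15 to Slc25a2, at 1.02 to 1.51 and 1.69 to 2.20. The ornithine ratio includes a gene near 1 FPKM, so it depends on the pseudocount. At a pseudocount of 0.1 the mean was 1.85 for Slc25a15 over Slc25a2 in hypothalamus and 2.70 for Slc25a15 over Slc25a2 in hippocampus, beside 1.26 and 1.92 with 1. The ornithine ranges then overlapped, with hypothalamus replicate 3 (3.84 over 0.697 FPKM) above hippocampus replicate 2 (6.90 over 1.45). Ratios of Slc25a14 to Slc25a27 (2.19 to 2.80 in hypothalamus and 1.96 to 2.48 in hippocampus) and of Slc25a23 to Slc25a25 (2.28 to 3.25 and 2.49 to 2.87) overlapped. Of the glutamate carriers, Slc25a18 was listed above Slc25a22 in all 4 hippocampus libraries, where the log2 ratio of Slc25a22 to Slc25a18 ranged from -2.98 to -1.28. The hippocampus values of Slc25a22 are uncertain too, since 20 of 48 values of its block of loci were 0 there. No order of the glutamate carriers is therefore drawn from this ratio. No ratio is given for hypothalamus, where Slc25a22 may be a failed estimate.

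**Figure D4:**
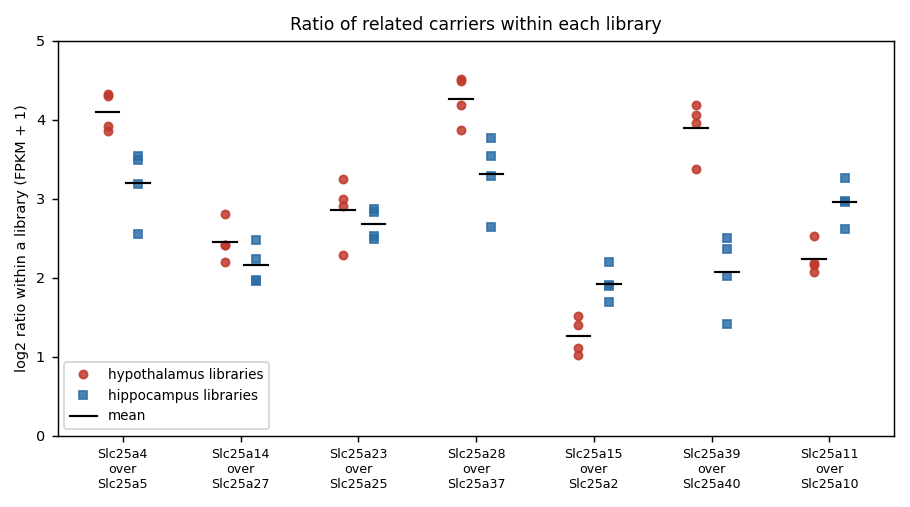
The vertical axis is the log2 ratio of related carriers within each library, without the pair that includes Slc25a22 (FPKM + 1), with circles for the 4 hypothalamus libraries, squares for the 4 hippocampus libraries and a line at the mean of each. The pair Slc25a39 over Slc25a40 is the furthest apart, with means of 3.89 in hypothalamus and 2.07 in hippocampus.

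Genes that work beside the carriers were taken from 9 lists, of which 34 of 42 names were in both tables and 31 reached a mean of 1 FPKM. Of these 3 were called higher in hypothalamus, 5 lower and 23 neither, with a median difference of -0.27. Over all genes 13.3% were called higher and 13.4% lower, with a median of -0.04, so the partner counts lay near the background. Among family members named otherwise, Ucp2, an uncoupling protein, averaged 122 ± 17.4 FPKM in hypothalamus, against 49.9 ± 9.82 in hippocampus (SD, n = 4), and Mtch1, an outer membrane relative, at 744 ± 71.8 and 188 ± 23.3. Both were called higher. Mcart1l, a name that RefSeq gives as a synonym of Slc25a53, was at 219 ± 19.3 and 389 ± 149 FPKM over 2 loci and was not called.

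The malate dehydrogenases of the shuttle went opposite ways. Mdh1, the cytosolic enzyme, was lower in hypothalamus at 467, 363, 389.9 and 412 FPKM, against 1949.5, 2191, 2630.3 and 3791 in hippocampus (-2.65 ± 0.22). Mdh2, the matrix enzyme, was higher at 273, 321, 359 and 308 FPKM, against 119, 82.3, 102 and 113 (1.60 ± 0.14). Their partners Got1 and Got2, the aspartate aminotransferases, were not called. Others called lower were Gpd2 of the glycerol phosphate shuttle (9.78 to 10.6 against 32.2 to 64.3 FPKM), Mpc2 of the pyruvate carrier (81.3 ± 5.29 against 201 ± 24.5) and the outer membrane channel Vdac3 (163 ± 38.9 against 397 ± 30.2). Of these, Gpd2 and Mpc2 have 2 loci in 1 table and 1 in the other. None of the 5 carnitine acyltransferases was called, although Cpt2, the partner of Slc25a20 inside mitochondria, was at 12.2 ± 0.862 against 5.94 ± 0.892 FPKM. Glul, glutamine synthetase of astrocytes and the most abundant uncalled partner in hypothalamus, was at 722 ± 84.4 against 735 ± 54.7 FPKM.

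Libraries of a tissue differed unevenly. In hypothalamus replicate 1 was the highest of the 4 for 14 of the 34 members and the lowest for 12, where it was the highest for 39.1% and the lowest for 41.4% of all genes. In hippocampus replicate 2 was the lowest for 17 of the 34 members and the highest for 10, where it was lowest for 36.3% and highest for 37.7% of all genes. The median deviation of the members there from the other hippocampus libraries was -0.19 on the log2 scale, beside -0.0034 for all genes. The median log2 SD of the members was 0.17 in hypothalamus and 0.23 in hippocampus, beside 0.20 and 0.26 for all genes.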

How the data were processed

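Polyadenylated RNA was sequenced on an Illumina HiSeq, per the labels' protocols. For each tissue the authors deposited 1 table of FPKM per locus, with a status beside each value. Cufflinks, Cuffdiff, Bowtie, Bowtie2, TopHat and TopHat2 and the build rn5 are listed by the submitters' processing notes. Their versions, and any scaling between libraries, were not given in the sources used here. All values of the members had status OK.

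For a symbol with several loci in a table, which concerned 5 members, FPKM values were added up. Libraries were divided by median-of-ratios factors over symbols in both tables (1.07 to 1.12 for hypothalamus and 0.892 to 0.950 for hippocampus). Differences are of mean log2(FPKM + 1), which understates those of low genes, and calls use the rule in the text over the 10554 genes that averaged 1 FPKM or more. The calculation was tested on simulated data. The depth is unknown, so no interval for counting error is given. RefSeq sequences are from build GRCr8, whose coordinates were not mixed with those of the tables. Values were given per library for the 3 highest members in each tissue, those called, both members of each pair and the 3 with the widest spread in each tissue; of partner genes, those called and the highest were named, with some added after their values were seen (Cpt2, Got1, Got2 and Mcart1l). Slc25a54 was given its class after the tables had been read. The values of 1 member and 1 partner gene are not reported here, but both stay in the counts and totals. Alternatives covered scaling, pseudocount, filter, loci and left-out libraries. Members, lists and pairs were chosen with earlier results of these data known. Python 3.11.15, numpy 2.4.6 and pandas 2.3.3 were used.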

Additional observations from a re-analysis of the deposited data

Results flagged for a closer look

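For 4 of 81 groups of 4 libraries (members and class totals within a tissue), 1 library lay further from the others than the 95% critical ratio of Dixon's test allows on the log2 scale; chance gives about 1 in 20. In hypothalamus Slc25a3 was highest in replicate 1, at 408 FPKM against 299 to 313 in the others (ratio 0.851). Slc25a23 was lowest in the same library, at 103 FPKM against 177 to 197 (ratio 0.832). Slc25a39 in hypothalamus was lowest in replicate 3, at 82.8 FPKM against 88.0 to 89.1 (ratio 0.835), a small step in a tight group. In hippocampus Slc25a32 was highest in replicate 2, at 8.05 FPKM against 5.05 to 5.41 (ratio 0.859).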

How the results depend on the processing

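Under the 19 alternatives that bear on single members, 622 of 628 values of single members kept their side of the limit, 5 passed it (Slc25a20 in 4 of these, Slc25a34 in 1) and 1 fell short (Slc25a1 without hippocampus replicate 2). Changing the filter or leaving out Slc25a22 cannot alter the value of a member, so those values were the same by construction. The count called lower was 1 when genes had to average 5 FPKM, when symbols with several loci were dropped and without Slc25a22, which was left out after its values had been seen. The median difference of members, 0.21, was 0.42 on the deposited scale and 0.00725 with the filter at 5 FPKM (median difference of all genes -0.10), and 0.08 to 0.27 when each library was left out in turn. Partner genes called higher numbered 6 with values as deposited, and those called lower 2 when symbols with several loci were dropped, which removes Gpd2 and Mpc2 among others. Leaving out a library gave 3 to 5 members higher, 2 lower, 3 to 4 partner genes higher and 5 lower. Class totals that did not overlap numbered 5 or 6 under these alternatives. Without the members called higher they numbered 4, and 3 with upper-quartile scaling as well. The total of amino acids, with Slc25a22 still in it, then differed by -0.25 (-0.020 on the deposited scale and -0.14 with upper-quartile scaling). The total of cofactors and pyrimidine nucleotides differed by -0.22 (-0.11 with upper-quartile scaling) but lay just above 0 on the deposited scale. The full totals of both classes were above 0, and no direction is given for the totals without those members. No paired analysis was possible because the result comes from no test and the labels do not say whether equal replicate numbers mark 1 animal. Leaving out the hippocampus libraries with choroid plexus transcripts was also chosen after seeing the data. The unknown depth limits what can be said of members under 1 FPKM.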
